A study of Arabidopsis thaliana with 6 samples.

Results

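Chloroplasts and mitochondria keep small genomes of their own, and the transcripts of these genomes were compared between roots of Arabidopsis thaliana seedlings in toxic boric acid and control roots. The Affymetrix ATH1 array holds a block for them, a run of consecutively numbered probe sets, and all of this run were taken. It holds 150 of the 22746 probe sets that are not array controls. The choice used probe set numbers and no measured value, but it was made with earlier results of these data known. By the annotation, 77 of the 150 stand for plastid genes and 13 for mitochondrial genes. Another 15 stand for genes of nuclear chromosome 2, and 45 could not be named. The label of an organelle block therefore holds only in part: of the 15 nuclear probe sets, 10 belong to AT2G26 loci and 5 to AT2G07 loci, the latter in a region of chromosome 2 that is known to carry a copy of the mitochondrial genome.

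Seedlings 5 days old were moved to half-strength Murashige-Skoog medium with 5 mM boric acid (H3BO3) or to the same medium without it, and roots were sampled after 12 h. There are 3 arrays in each group, and the number after a group's name is the replicate number that the labels give an array. The labels state no ecotype or genotype, and describe the replicates as biological without saying how many plants each holds. Values are log2 expression values, and changes are boric acid minus control with the standard error (SE) of limma's fit. This SE is always that of the fit without a replicate block, also where an adjusted p with the block stands beside it. A change was past the threshold at an adjusted p under 0.05 over all 22746 probe sets. A second fit took the replicate number as a block, comparing arrays of the same number, and "rose" and "fell" are used only of changes past the threshold in a named fit.

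In plant cells, plastid genes are read by a polymerase whose core is encoded in the plastid (rpoA, rpoB, rpoC1 and rpoC2) and by phage-type polymerases encoded in the nucleus. Many plastid genes lie next to each other and are transcribed together, after which the long transcripts are cut, spliced and edited. Root plastids are mostly not green, and their genome also encodes ribosomal proteins and proteins outside photosynthesis, such as a subunit of acetyl-CoA carboxylase (accD) and of the Clp protease (clpP). Mitochondrial genes encode part of the respiratory chain, of its ribosome and of cytochrome c maturation. The labelling kit primes at poly(A) tails, which most organelle messenger RNAs lack, and where organelle RNA does carry such a tail the tail marks it for breakdown. The values therefore describe what this labelling picks up, which need not be the amount of mature transcript. Root RNA was measured in bulk, so fewer plastids or cells of a type and less RNA in each cannot be told apart.

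The arrays numbered 1 stood apart in RNA quality, with a difference between the 3′ and 5′ actin probe sets of 2.96 on boric acid 1 and 2.60 on control 1, against 1.23 to 1.71 on the other arrays. Array controls for the bacterial TrpnX gene, used here as background, had values of up to 0.217. Of the 150 members, 121 had a mean above that value, 65 a mean over 1 and 31 a mean over 4. Markers and lists were matched to probe sets by gene name, and a name without a match is not shown to be absent from the array. Of the 43 green tissue marker names listed, 6 matched a probe set and none of these was at the TrpnX level. Their summed value was 15.2 to 19.3 in boric acid and 17.1 to 20.1 in control roots. The largest difference among them was in LHCB4.2, an antenna protein of photosystem II, at -0.99 ± 0.33 (adjusted p = 0.187). PSBY (-0.63) and LHCB4.1 (-0.22) were lower too, while LHCB4.3 (0.26), PSAE-1 (0.12) and RCA (0.12) were higher. Their median change was -0.05, and none was past the threshold in either fit. Of 14 root marker names, 3 matched a probe set, with a summed value of 12.6 to 13.6 in boric acid and 10.2 to 13.0 in control roots. Of these, EXPA18, an expansin of root hair cells, rose with the replicate block by 0.67 ± 0.22 (adjusted p = 0.190, or 0.0353 with the block). The changes of UPB1 (0.72 ± 0.38) and EXPA7 (0.02 ± 0.39) were not past the threshold in either fit. The part of these markers in the results was not tested.

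No member of the block was past the threshold in limma's fit without the block, where 3.25% of all probe sets were. At an unadjusted p under 0.05 there were 18 of 150, against 16.7% of all probe sets. Of these, 13 were higher in boric acid (9.11% of all) and 5 lower (7.6% of all). Arrays of the groups did not overlap for 26 of 150 members (17.3%), against 21.4% of all. With the replicate block 16 members (10.7%) were past the threshold, against 9.15% of all probe sets, so their share was near the background. Of the 16, 15 rose, where 5.3% of all probe sets rose, and 1 fell, where 3.85% fell. The paired calls depended on single pairs of arrays, among the members as over all 22746 probe sets. Without the pair numbered 1, 16 rose and 4 fell, where 2582 of all probe sets were past the threshold. Without the pair numbered 2 only rpl14 rose, where 530 of all were past it. Without the pair numbered 3 there was none, where 235 of all were past it. Without both arrays numbered 1 and with no block, 10 were past the threshold, where 7.05% of all probe sets were. They were 8 higher (4.08% of all) and 2 lower (2.97% of all). The 2 lower were AR781, one of the AT2G26 loci, and the unnamed probe set 245043_at, so neither was a named organelle gene.

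Of the 16 calls with the block, 14 were of plastid genes. Of 77 plastid probe sets, 13 rose and 1 fell with the replicate block (18.2%), and of 13 mitochondrial probe sets none did. The remaining 2 calls were rises of probe sets that could not be named. With the actin difference added to the block, 9 of the 16 stayed past the threshold and 7 did not, all 7 of them plastid genes: 5 of the run from rpoA to rpl23, ndhC (adjusted p = 0.0650) and clpP (adjusted p = 0.0625). That fit leaves only 1 residual degree of freedom, and 2209 of all probe sets were past the threshold in it. Of the 77, 49 had a mean over 1, and the 14 calls were among these (28.6%), against 15.5% called of all probe sets over that mean. The plastid median change was -0.01 and 38 of 77 changes were above 0, beside a median of -0.01 and 46.9% above 0 over all probe sets. Gains and losses stood side by side, from -1.02 for petB to 1.52 for rps16. By class, 7 of 20 ribosomal protein probe sets, 3 of 11 of the NDH complex, 2 of 9 of other proteins and 1 of 4 of the RNA polymerase rose with the block. In the photosynthetic classes 1 of 6 for cytochrome b6f fell, and none of 5 for photosystem I, 15 for photosystem II, 6 for ATP synthase and 1 for Rubisco passed.

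**Figure D1:**
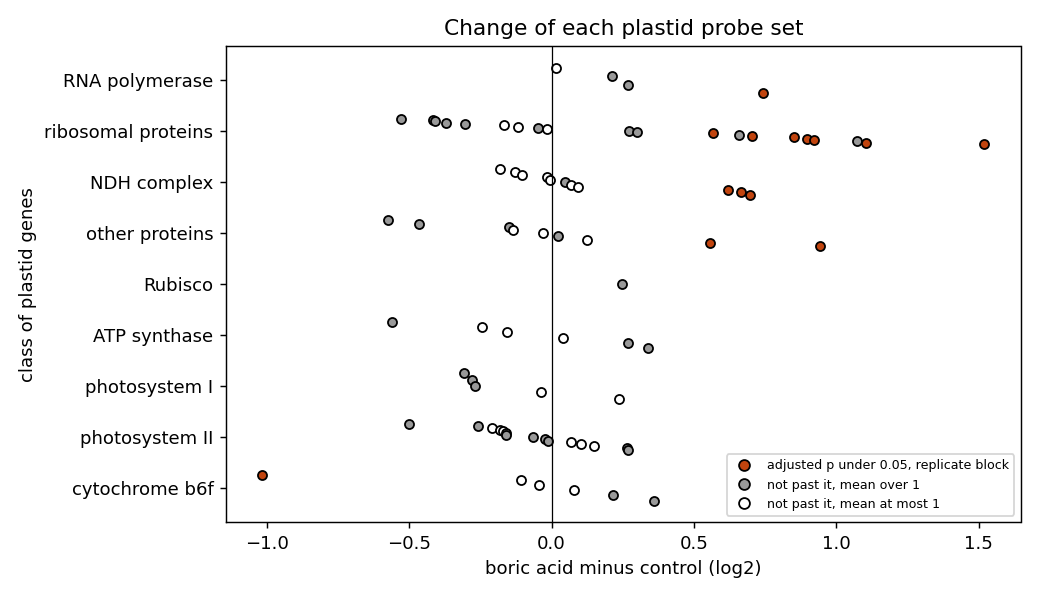
Change of each of the 77 plastid probe sets (boric acid minus control, log2, horizontal axis) by class (vertical axis). Each point is 1 probe set: red for an adjusted p under 0.05 with the replicate block, grey for others with a mean over 1 and white for others with a mean of at most 1. The 13 red points right of 0 lie in 4 classes, and petB, at -1.02, is the only red point left of 0.

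The longest run of raised neighbours was the ribosomal protein cluster. In the RefSeq gene order of the plastid genome, it runs from rpoA to rpl23. Results are given for the 9 of its genes that have a named probe set. All are for ribosomal proteins except rpoA, which encodes the alpha subunit of the plastid-encoded polymerase. Of these 9, 8 had a positive change in each same-numbered pair, and 6 rose with the block (rpoA, rpl36, rpl14, rpl16, rps19 and rpl2). All 9 had a mean over 1, and with the block 15.5% of all probe sets over that mean were called. With the actin difference added to the block, 1 of these 6 stayed past the threshold, rpl16, and the adjusted p of the other 5 was 0.0625 to 0.0919. This run was picked out after its values were seen, so its counts are a description. The unnamed probe sets 244979_at and 244981_at, numbered among those of the run, are not counted in it. Their changes were 0.80 ± 0.45 and 0.39 ± 0.22, neither past the threshold in either fit.

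The probe set of rpoA read 5.88, 6.14 and 6.27 on boric acid 1 to 3 and 5.04, 5.62 and 5.39 on control 1 to 3. All boric acid arrays lay above all control arrays. Its change was 0.74 ± 0.18 (adjusted p = 0.0926, or 0.0229 with the block), or 1.68-fold. For rpl2, whose probe set reads both inverted-repeat copies of the gene, the values were 7.12, 7.49 and 7.40 in boric acid and 6.57, 6.90 and 6.84 in control roots. These groups did not overlap either, and the differences by pair were almost equal at 0.55, 0.59 and 0.56. Its change was 0.57 ± 0.15 (adjusted p = 0.110, or 0.0299 with the block). For rps19 the values were 5.68, 6.28 and 6.03 in boric acid against 4.23, 5.62 and 5.39 in control roots, a change of 0.92 ± 0.37 (adjusted p = 0.288, or 0.0395 with the block).

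In rpl14, rpl16 and rpl36 the groups overlapped, and each array numbered 1 was the lowest of its group. The large-subunit gene rpl14 was at 6.36, 7.11 and 7.21 in boric acid and at 4.71, 6.49 and 6.16 in control roots. Boric acid 1 lay between control 2 and 3, and 1.64 above control 1. Its change was 1.11 ± 0.49 (adjusted p = 0.328, or 0.0306 with the block), or 2.15-fold. For rpl16, at 4.06, 5.56 and 5.58 against 2.98, 4.63 and 4.89, the change was 0.898 ± 0.621 (adjusted p = 0.572). With the block its SE was 0.122 (adjusted p = 0.0146). Boric acid 1 lay below both control 2 and 3. This was so for rpl36 too, with a change of 0.85 ± 0.55 (adjusted p = 0.541, or 0.0372 with the block). These sizes depended on control 1: without it the change was 0.26 for rpl36, 0.31 for rpl16, 0.57 for rpl14, 0.50 for rps19 and 0.32 for rps3. Without boric acid 1 that of rpl16 was 1.40.

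Neither rpl22 nor rps3 was past the threshold in either fit. Their changes were 1.07 ± 0.62 (adjusted p = 0.480, or 0.0504 with the block) and 0.66 ± 0.30 (adjusted p = 0.348, or 0.0715 with the block). The exception in direction was rpl23, at the end of the run next to rpl2. It read 2.65, 3.21 and 3.38 in boric acid and 2.90, 3.62 and 4.31 in control roots, lower in each pair, with a change of -0.53 ± 0.37 (adjusted p = 0.582, or 0.108 with the block).

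Averaged over the 9 genes, the run stood at 5.40, 6.10 and 6.15 in boric acid and at 4.34, 5.57 and 5.64 in control roots. Both arrays numbered 1, those with the highest actin 3′ to 5′ difference, were the lowest of their group, and control 1 was the lowest of all. Without both of them, 4 of the 9 were past the threshold without the block (rpoA, rpl36, rpl14 and rpl16), at changes of 0.62 to 0.84. Over all probe sets, 7.05% were past it in that fit. With the actin difference as a covariate and no block, the change was 1.22 for rpl14, 1.00 for rps19 and 1.00 for rpl36. With the block and the actin difference together, it was 0.71, 0.54 and 0.52.

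**Figure D2:**
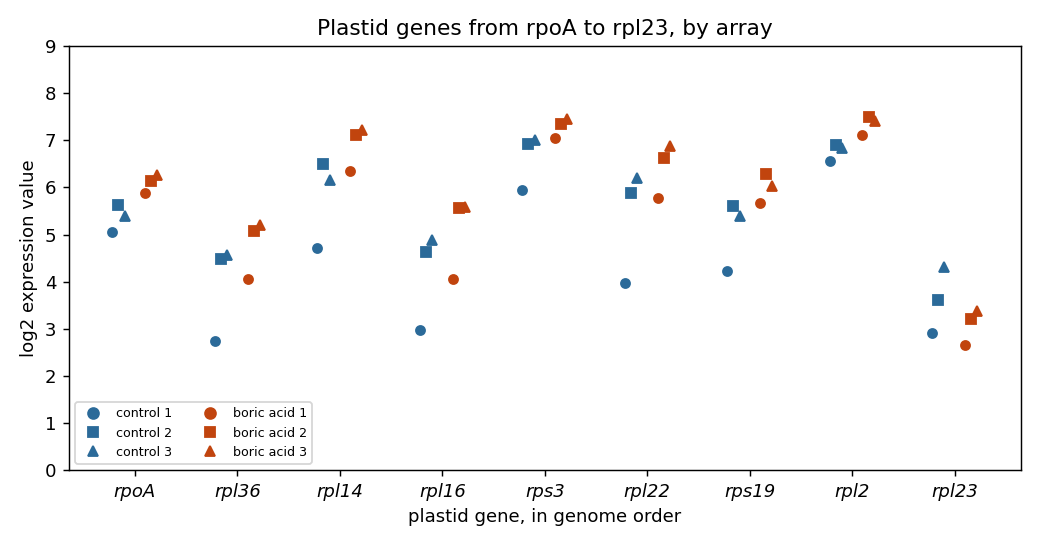
Log2 expression value (vertical axis) of the 9 plastid genes from rpoA to rpl23 with a named probe set, in genome order (horizontal axis), 1 point per array, blue for control, red for boric acid, with the marker shape giving the replicate number. Red markers lie above blue markers of the same shape for 8 genes, by 0.84, 0.52 and 0.87 for rpoA, and below them for rpl23.

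Outside that run, 2 ribosomal protein genes rose with the block. The small-subunit gene rps16 had the largest change of the 150 members, 1.52 ± 0.31 (adjusted p = 0.0559, or 0.0412 with the block), or 2.87-fold. Its probe set was at 1.72, 2.89 and 2.26 in boric acid and at 1.07, 0.49 and 0.75 in control roots, with no overlap. The pairs differed in size, at 0.655, 2.40 and 1.51, and the gene was past the threshold without the block when boric acid 1 (adjusted p = 0.0451) or control 1 (adjusted p = 0.0479) was left out. For rps2 the values were 0.75, 1.73 and 1.79 against 0.39, 0.88 and 0.88. Each boric acid array lay above the control array of its number, while boric acid 1 lay below control 2 and 3. The change was 0.71 ± 0.31 (adjusted p = 0.325, or 0.0416 with the block).

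The other ribosomal protein genes outside the run were not past the threshold, and their directions differed. Higher values in each pair were found for rpl32 (0.30 ± 0.30) and rps15 (0.27 ± 0.23). Lower values in each pair without a call were also found, as for rpl33 (-0.41 ± 0.37, adjusted p = 0.0874 with the block) and rps18 (-0.41 ± 0.65, adjusted p = 0.0821 with the block), which are neighbours. The values of rps18 ran from 2.03 to 4.1 in boric acid and from 2.57 to 4.50 in control roots, so the arrays of a group differed more than the groups did. Of the 2 probe sets of rps12, one was lower in each pair, with a change of -0.17 ± 0.18, and the other was not, with one of -0.37 ± 0.62. For rps7 the change was -0.30 ± 0.45, and rps4 was at 6.23 ± 0.32 (SD, n = 3) in boric acid and 6.28 ± 0.38 in control roots. Of the polymerase genes beside rpoA, rpoC2 had a change of 0.27 ± 0.15 and rpoC1 one of 0.21 ± 0.27, neither past the threshold, and rpoB was near background at 0.12 and 0.11.

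The NDH complex, which passes electrons from reduced ferredoxin to plastoquinone in chloroplasts, had 11 probe sets, of which 7 were above the TrpnX level and 4 had a mean over 1. The subunit genes ndhI, ndhA and ndhC rose with the block, and the other 8 had changes between -0.18 and 0.09. The ndhI probe set was at 7.10, 7.30 and 7.06 in boric acid and at 6.72, 6.41 and 6.24 in control roots. These groups were apart, with a change of 0.70 ± 0.15 (adjusted p = 0.0684, or 0.0372 with the block). Without control 1 the gene was past the threshold with no block, at 0.83. Next to it, ndhA was at 2.85, 3.36 and 3.55 against 2.21, 2.60 and 2.96, higher in each pair and overlapping between groups, with a change of 0.66 ± 0.25 (adjusted p = 0.252, or 0.0216 with the block). The neighbours on either side, ndhG and ndhH, showed no such difference, at means of 0.65 and 0.83 for ndhG and 0.21 and 0.22 for ndhH. The gene ndhC lies elsewhere, beside ndhK and atpE, and was at 5.33, 4.90 and 4.91 in boric acid against 4.77, 4.41 and 4.09. All its boric acid arrays were higher, by 0.62 ± 0.21 (adjusted p = 0.199, or 0.0337 with the block).

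Of the other plastid proteins, ccsA and clpP rose with the block. The ccsA gene, needed to attach heme to c-type cytochromes in the plastid, was at 5.78, 5.78 and 5.30 in boric acid and at 5.08, 4.85 and 4.1 in control roots. The groups did not overlap, and the change was 0.94 ± 0.28 (adjusted p = 0.151, or 0.016 with the block), or 1.92-fold. For clpP, the catalytic subunit of the Clp protease encoded in the plastid, the values were 6.50, 6.55 and 6.15 against 6.01, 5.99 and 5.53. Its pairs differed by 0.495, 0.558 and 0.621 and its change was 0.56 ± 0.18 (adjusted p = 0.183, or 0.0327 with the block). Not past the threshold were accD, with a change of -0.57 ± 0.32, ycf1 with one of -0.47 ± 0.43, and matK, the plastid intron maturase, with one of -0.15 ± 0.43.

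The cytochrome b6f complex links the photosystems, and petB, which encodes its cytochrome b6, was the plastid gene that fell with the block. It read 3.79, 4.33 and 3.92 in boric acid and 4.98, 5.33 and 4.79 in control roots. Every boric acid array was below every control array, and the change was -1.02 ± 0.20 (adjusted p = 0.0518, or 0.00982 with the block), 2.02-fold lower. Its neighbours in the gene order, psbB, psbT, psbN, psbH and petD, had means of 0.06 to 0.58 and none was past the threshold. Of the other genes of the complex, petA had a change of 0.21 ± 0.26 and petN one of 0.36 ± 0.28. A gene of chromosome 2 in the same block, AT2G26500, had the next largest negative change of the 150, at 4.36, 4.12 and 3.79 against 4.38, 5.50 and 4.77, or -0.79 ± 0.30 (adjusted p = 0.258, or 0.134 with the block).

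Photosystem and ATP synthase genes gave no call in either fit. The nearest was psbE, for a subunit of cytochrome b559 of photosystem II, at 3.18, 2.84 and 3.19 in boric acid and 3.86, 3.38 and 3.47 in control roots. These groups did not overlap, with a change of -0.50 ± 0.17 (adjusted p = 0.206, or 0.0674 with the block). Its neighbours psbF, psbL and psbJ had changes of -0.26 ± 0.22, -0.16 ± 0.28 and -0.01 ± 0.28, none past the threshold. Photosystem II genes ranged from -0.50 to 0.27, with psbM at 7.79 ± 0.33 (SD, n = 3) in boric acid and 7.52 ± 0.32 in control roots. Photosystem I genes ranged from -0.31 for psaB to 0.24 for psaC, which was near background. In the ATP synthase, the adjoining genes atpB (0.27 ± 0.31) and atpE (0.34 ± 0.21) had positive changes and atpA, in another part of the genome, had one of -0.56 ± 0.38. For rbcL, the large subunit of Rubisco, the change was 0.25 ± 0.17 (adjusted p = 0.566). The core genes psbA, psbD and psaA had means of 0.25 to 1.1 in both groups.

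**Figure D3:**
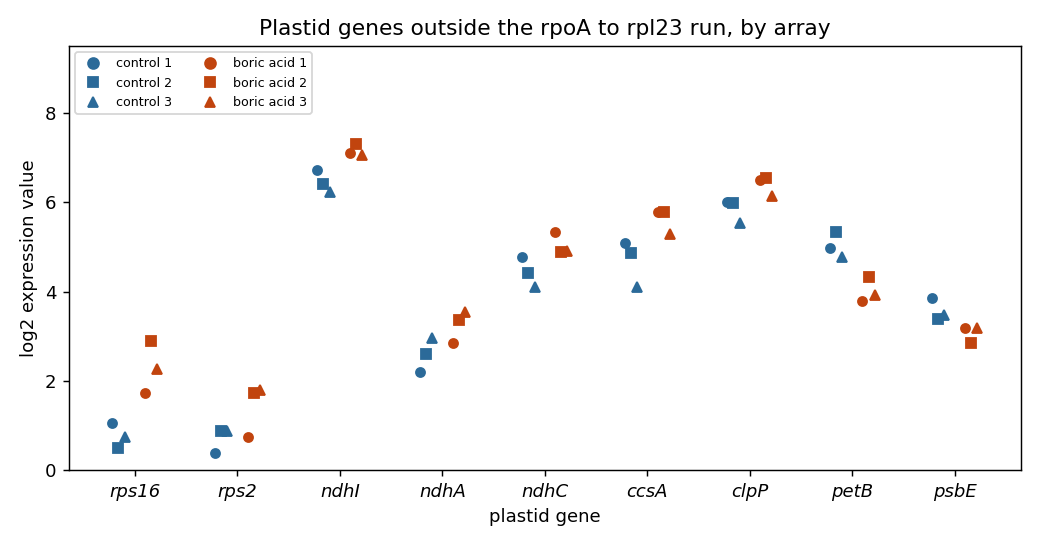
Log2 expression value (vertical axis) of 9 plastid genes outside the rpoA to rpl23 run (horizontal axis), 1 point per array, blue for control, red for boric acid, with the marker shape giving the replicate number. Red lies above blue of the same shape for the 7 genes from rps16 to clpP, as for ccsA (0.698, 0.923 and 1.203), and below it for petB and psbE.

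The 13 mitochondrial probe sets gave no call with or without the block, and their groups overlapped for each of the 13. Changes ran from -0.22 to 0.13 with a median of -0.01. Signal was low: 12 had a mean above the TrpnX level but only 3 a mean over 1, namely ccmFN1, nad4 and a probe set shared by rps3 and rpl16. The complex I gene nad4 was at 3.30, 3.08 and 3.08 in boric acid and at 3.37, 3.61 and 3.13 in control roots. The pairs differed by -0.07, -0.53 and -0.05, and the groups overlapped, with a change of -0.22 ± 0.15 (adjusted p = 0.570). The shared probe set of rps3 and rpl16 differed by -0.07 ± 0.25. For cox2, a subunit of cytochrome c oxidase, all 6 arrays lay between 0.53 and 0.62, and for mttB, a membrane protein of the twin-arginine type, between 0.62 and 1.00. The intron maturase gene matR was at 0.43 and 0.53, and the other complex I genes nad4L, nad6, nad7 and nad9 had means of 0.12 to 0.47.

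For ccmFN1, a gene of cytochrome c maturation, the direction depended on which arrays were included. It was at 4.17, 4.79 and 4.80 in boric acid and at 2.93, 5.28 and 5.24 in control roots. The change of 0.11 ± 0.64 (adjusted p = 0.967) became -0.67 without control 1 (adjusted p = 0.157) and -0.46 without both arrays numbered 1 (adjusted p = 0.0899). Control 1, the lowest value, is one of the arrays with a high actin 3′ to 5′ difference. The 5 probe sets of AT2G07 loci had changes of -0.13 to 0.17 and means up to 0.95, and they cannot be told apart from the mitochondrial copies of their sequences where these are near identical.

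**Figure D4:**
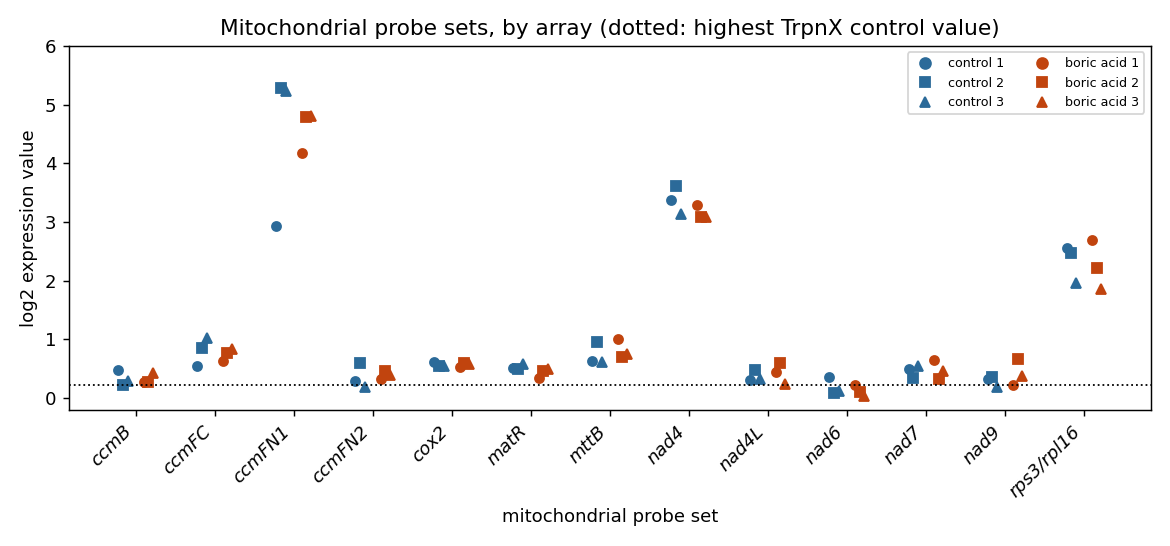
Log2 expression value (vertical axis) of the 13 mitochondrial probe sets (horizontal axis), 1 point per array, blue for control, red for boric acid, with the marker shape giving the replicate number, and a dotted line at the highest TrpnX value, 0.217. Red and blue overlap for each probe set, and ccmFN1 on control 1, at 2.93, lies apart from control 2 and 3.

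Nuclear genes that work in the same organelles were read from lists, matched to probe sets by gene name. Of 47 entries for respiratory subunits, alternative oxidase, alternative dehydrogenases and related proteins, 12 were matched, so the counts cover only part of the list. The alternative oxidase entries were not matched, so these genes were not read. None of the 12 was past the threshold without the block. At an unadjusted p under 0.05 in limma there were 5 (41.7%, against 16.7% of all probe sets), 4 higher and 1 lower. The lower one was SDH1-2, a flavoprotein subunit of complex II, at -0.49 ± 0.19 (adjusted p = 0.271, or 0.100 with the block). With the block 3 of the 12 rose (25%, against 9.15% of all probe sets called). All but NDB4 and SDH1-2 had a mean over 1, and of all probe sets over that mean 15.5% were called. These were NDB2, CYTC-2 and SDH1-1. The change of NDB2, an alternative NADH dehydrogenase, was 1.51 ± 0.46 (adjusted p = 0.159, or 0.0281 with the block). That of CYTC-2, a cytochrome c, was 1.29 ± 0.37 (adjusted p = 0.135, or 0.0128 with the block). For SDH1-1, the other flavoprotein subunit, it was 0.56 ± 0.14 (adjusted p = 0.0907, or 0.0330 with the block). CYTC-2 went from 6.04 to 7.33 and SDH1-1 from 7.11 to 7.66. The list's median change was 0.31, against -0.01 for the mitochondrial probe sets and -0.01 for all probe sets. Whether nuclear and mitochondrial genes differed in their response was not tested. Of 68 entries for transcription and RNA processing in organelles, 6 were matched, all of them editing or splicing factors (CRR21, OTP43, OTP84, OTP85, OTP86 and OTP87). Entries without a match, among them those for polymerases, may still have a probe set on the array. Their means lay between 0.05 and 0.53, and none was past the threshold in either fit or at an unadjusted p under 0.05 in limma.

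Among the 45 unnamed probe sets, of which 9 had a mean over 1, 2 rose with the block (4.44%, against 9.15% of all probe sets called). Both were among the 9, and of all probe sets over that mean 15.5% were called. The probe set 245028_at was at 4.47, 4.43 and 3.99 in boric acid and at 3.52, 3.53 and 3.17 in control roots, a change of 0.89 ± 0.17 (adjusted p = 0.0521, or 0.0107 with the block). Its number is next to those of AT2G26 loci, so it may not be an organelle transcript. The probe set 244906_at was at 1.49, 1.87 and 1.75 against 0.95, 0.96 and 0.43, a change of 0.92 ± 0.18 (adjusted p = 0.0545, or 0.0305 with the block). Neither pair of groups overlapped. Among the 10 AT2G26 loci, AT2G26600 had a change of 0.52 ± 0.11 without overlap (adjusted p = 0.0659, or 0.0503 with the block), and none passed in either fit. Without both arrays numbered 1 and with no block, AR781 was past the threshold, at -0.76 (adjusted p = 0.0364).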

How the data were processed

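RNA of 6 root samples was hybridised to Affymetrix ATH1 arrays. The authors deposited log2 values, 1 for each probe set and array, made with RMA per the submitters' processing notes, whose version, background step and baseline are not given in the sources used here. The table holds 22810 probe sets, and 64 array controls were left out. Precision is limited by the number of arrays. Genes came from the array's probe table, joined to a RefSeq gene table of the assembly TAIR10.1, which served for names and gene order only. Among the 150 members, 96 list 1 gene, 9 several and 45 none. In 8 of the 9 both entries carry 1 symbol, for copies in the inverted repeat, and that symbol was used.

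Boric acid was compared with control by limma 3.58.1 in R 4.3.3 (lmFit and eBayes, two-sided, Benjamini-Hochberg over 22746 probe sets, threshold 0.05), tested on simulated data. The second fit added the replicate number as a block. What a replicate number marks is not stated in the labels. Arrays were paired by that number. Deviations from group means correlated over probe sets at 0.608, 0.231 and 0.618 within the pairs numbered 1, 2 and 3. Between other arrays they correlated at -0.619 to 0.284. Control 2 correlated more with boric acid 3 (0.284) than with boric acid 2 (0.231). The check therefore does not settle the pairing of the arrays numbered 2. Deviations within a group sum to 0, which makes these correlations depend on each other. P-values without the block rest on the spread between these samples within a group. Those with the block rest on the spread of the differences between same-numbered arrays.

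The members and lists were chosen with earlier results of these data known. A rule named 18 genes: among probe sets that list 1 gene, in each class of each genome the one with the largest change and the one with the highest mean, and any past the threshold. Other genes were named after their values were seen, as were the runs of neighbours. Alternatives were the block, each array left out, quantile normalization again, median centring, dim probe sets left out, a mean-dependent prior and the actin difference as a covariate. Added after seeing the data were both arrays numbered 1 left out, the block with the actin difference, and the block without each pair.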

Additional observations from a re-analysis of the deposited data

How the results depend on the processing

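Calls in the block depended on the fit. Without the block 0 members were past the threshold, as also after quantile normalization or median centring. The counts higher and lower were 15 and 1 with the replicate block, 13 and 1 with the actin difference as a covariate, 8 and 6 with both, 8 and 2 without both arrays numbered 1, 2 and 1 with dim probe sets left out, and 1 and 0 with a mean-dependent prior. Pairwise removal under the block gave 16 and 4, 1 and 0, and 0 and 0 without the pairs numbered 1, 2 and 3. Plastid counts were 14 with the replicate block, 11 with the actin covariate, 8 with both, 7 without both arrays numbered 1, 2 with dim probe sets left out, 1 with the mean-dependent prior, and 15, 1 and 0 with the pairs removed. Leaving out single arrays gave 0 to 3 higher, 0 lower and 0 to 2 plastid calls. The mitochondrial count was 0 except with the block and the actin covariate together, where it was 1, ccmFN1. Over all probe sets the count was 740, and 2081 with the block, 1881 with the actin covariate, 2209 with both, 1604 without both arrays numbered 1, and 2582, 530 and 235 under the block without each pair. It ranged from 70 to 1129 without single arrays. Respiratory genes of the nucleus gave 3 calls with the block, with the actin covariate, with both, and without both arrays numbered 1, 4 under the block without the pair numbered 1, and 0 to 3 without single arrays. The mitochondrial median of -0.01 became -0.057 without both arrays numbered 1, with or without the block, and -0.049 with the block and actin covariate. It lay between -0.019 and 0.025 without single arrays, and the plastid median between -0.041 and 0.065. The 26 organelle genes recomputed were those named by the rule or past the threshold with the block, so their signs do not stand for the other members. Of these 26, 3 mitochondrial ones changed sign. Plastid genes outside the 26 did so too. Without both arrays numbered 1, psbK went from -0.16 to 0.28 and rpoC1 from 0.21 to -0.03, among others. With the block and actin covariate, without both arrays numbered 1 and without that pair under the block, ccmFN1 was at -0.72, -0.46 and -0.46, mttB at -0.12, -0.057 and -0.057, and cox2 at 0.051, 0.033 and 0.033. After quantile normalization cox2 was at 0.015. Without single arrays ccmFN1 ranged from -0.67 to 0.50, mttB from -0.0085 to 0.19 and cox2 from -0.019 to 0.016. The cause was not tested. Of the 13 mitochondrial probe sets, 12 had a mean above the TrpnX level and 3 a mean over 1.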
